A study of Rosa chinensis with 4 samples.

Results

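Some megabases of the rose genome carried few acetylated regions in petals, and the 830 peaks of H3K9ac found there are described here, out of 46596 peaks in the list. H3K9ac is histone H3 with an acetyl group on lysine 9, and it was measured by chromatin immunoprecipitation and sequencing (ChIP-seq), in which fragments bound by an antibody are read and their pile-ups called as peaks. The tissue was petals of Rosa chinensis at the start of flower opening, fixed with formaldehyde, with no treatment or genotype given in the labels. The series has 4 samples of 1 library each, namely H3K9ac ChIP, H3K27me3 ChIP and an input for each. The peak list of the H3K9ac ChIP library on the assembly RchiOBHm was used, and the remaining samples were not analysed here.

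The 7 chromosomes were divided into 1 Mb windows from base 1, and the incomplete window at the end of each chromosome was left out. A peak was placed in a window by its summit, the base where the fragments piled up highest. The peaks kept are those in windows of 40 or fewer summits, which were 30 of 500 full windows. The other 470 windows held 45114 peaks, and 447 peaks lay in incomplete windows and 205 on other sequences. The windows, and with them the peaks, were chosen by their number of summits, so the low number itself is no result. Measures tied to it (density, spacing, empty stretches, the share of genes with a peak, the share of weak peaks) are descriptions only.

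Histone acetylation loosens the contact between DNA and histones, and in plants H3K9ac is typically found near the start of genes that are transcribed. Gene-poor stretches of plant chromosomes, often rich in transposable elements and close to centromeres, are typically packed as heterochromatin and carry little of this mark. Where the centromeres and repeats of this assembly lie was not analysed here.

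There is 1 library, so samples could not be tested against each other and no p-value is printed. Intervals (95%) cover counting error only and treat peaks or genes as independent, which neighbouring ones are not. The number of fragments over each summit was recovered from the fold enrichment and p-value of the peak. Across the 7 chromosomes the median was 22 fragments, with a range of 9 to 282.

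The peak-poor windows lay on all 7 chromosomes but in uneven numbers. Chromosome 6 had 8 of them with 221 peaks, chromosome 3 had 6 with 160 peaks, and chromosome 1 had 5 with 155 peaks. Chromosomes 2 and 5 had 4 each, with 131 and 104 peaks, chromosome 7 had 2 with 24 peaks, and chromosome 4 had 1 with 35 peaks. On chromosomes 2, 4, 5 and 7 all of them lay between 40.3% and 60% of the chromosome's full windows. They were more spread out on chromosome 1, between 4.41% and 36.8%, and on chromosome 6, between 26.1% and 49.3%. On chromosome 3 they lay towards the far end, between 71.4% and 98.0%.

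**Figure D1:**
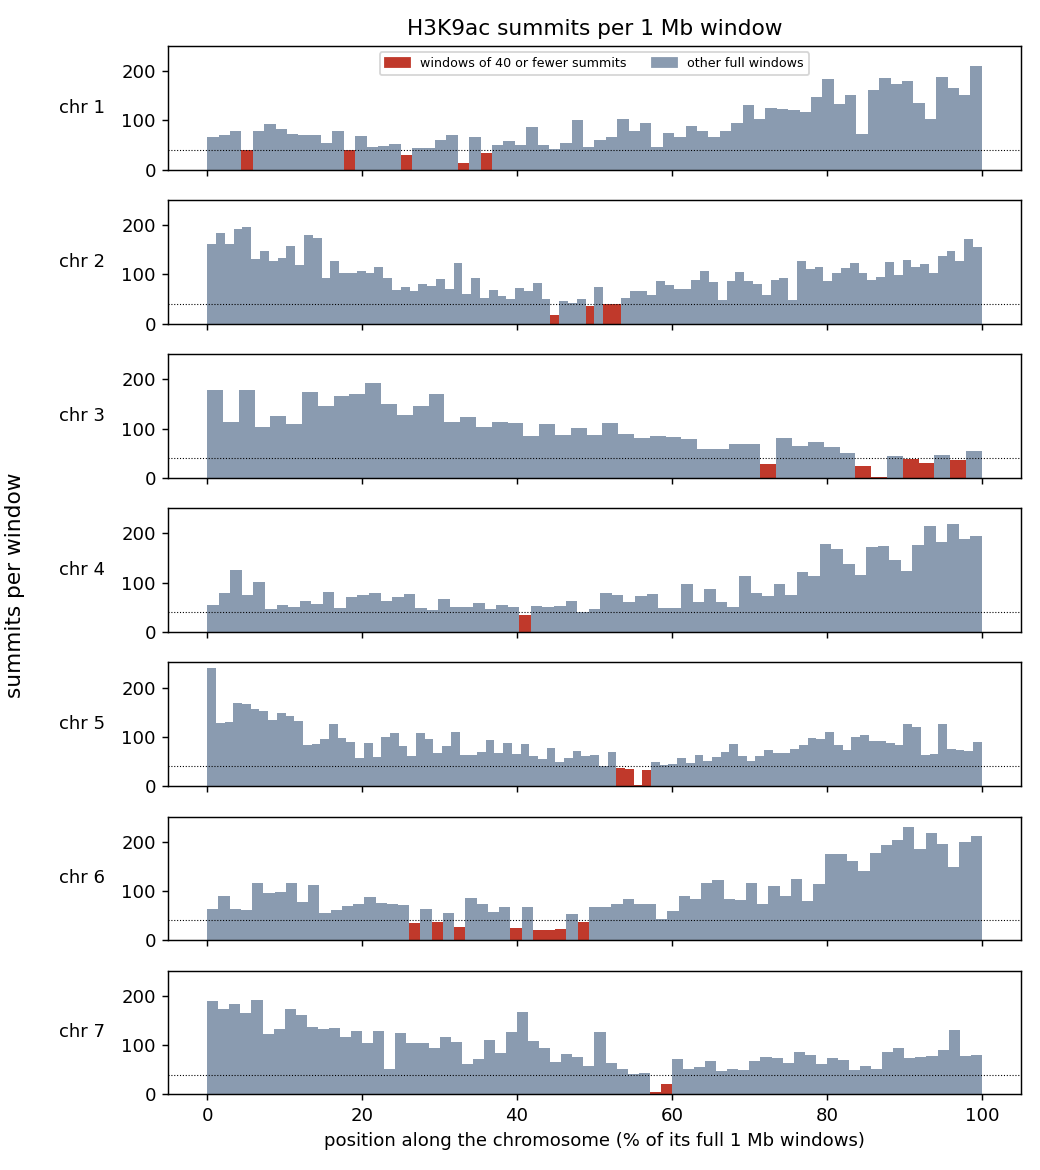
Number of H3K9ac summits in each full 1 Mb window of the 7 chromosomes, against position as a percentage of the chromosome's full windows. Red bars are the 30 windows of 40 or fewer summits (dotted line), grey bars the other 470. Some red windows stand in or beside broad dips of the profile, near the middle of chromosomes 2, 4, 5 and 7 and towards the far end of chromosome 3. Others are drops of a single window, such as chromosome 1 from 22000001 to 23000000, with 13 summits between neighbours of 70 and 67.

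The 30 windows formed 21 separate runs. Of these, 15 were of 1 window, 4 of 2 windows, 1 of 3 and 1 of 4. The longest run lay on chromosome 5 from 47000001 to 51000000 and held 104 peaks and 83 protein-coding genes. Its 4 windows had 36, 34, 2 and 32 summits. On chromosome 6 a run of 3 windows from 29000001 to 32000000 held 20, 21 and 22 summits. Runs of 2 windows lay on chromosome 2 from 45000001 to 47000000, on chromosome 3 from 41000001 to 43000000 and from 44000001 to 46000000, and on chromosome 7 from 40000001 to 42000000. No window adjoined another on chromosomes 1 and 4.

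The limit of 40 cuts through a continuous range of counts. By number of summits, 3 windows had 10 or fewer, 4 had 11 to 20, 8 had 21 to 30 and 15 had 31 to 40. The window just inside the limit, on chromosome 2 from 45000001 to 46000000 with 40 summits, had a median fold of 6.31. The windows just outside it, with 41 summits each, lay on chromosome 4 from 32000001 to 33000000 and on chromosome 5 from 45000001 to 46000000, with median folds of 5.25 and 4.64. Fold is the authors' fold enrichment of a peak, the fragments at the summit over the local background, with a small constant added to both.

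The peak-poor windows were also gene-poor, which the rule did not use. Gene positions were those of RefSeq on RchiOBHm-V2, and a gene was placed by its midpoint. The 30 windows held 773 protein-coding genes, with a lowest value of 1, a median of 27.5 and a highest of 41 per window. In the other 470 windows the lowest was 21, the median 57 and the highest 135. The ranges overlapped between 21 and 41 genes, and 64 of the other windows had 41 or fewer. Genes for long non-coding RNAs (lncRNA), transcripts with no long reading frame, thinned out less. They numbered 240, or 8 per window, against 12.6 per window elsewhere, and made up 20.8% of all annotated genes in the peak-poor windows, against 14.97% elsewhere. Windows of 41 to 60 summits held 1205 lncRNA and 3950 protein-coding genes, a mix like that of the peak-poor windows (240 and 773). The other 470 windows in all held 5917 and 29737.

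In the peak-poor windows, as elsewhere, the ends of protein-coding genes held more H3K9ac summits than any other kind of location. A summit was counted at a gene end when it fell within a protein-coding gene and at most 1 kb from either end. Of the 830 summits, 379 were at a gene end (45.7%, 42.2 to 49.1), against 22169 of 45114 elsewhere (49.1%, 48.7 to 49.6). The difference was −3.48 percentage points (−6.87 to −0.0452). Single windows varied far more than this: the share ran from 0 to 73.5% over the 30 windows, with a median of 43.1%, and from 19.4 to 76.9% over the others, with a median of 48.05%. The value of 0 was found only in windows of 2 summits, and shares in windows of few summits are coarse.

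Summits away from genes and summits in genes other than protein-coding ones took a larger share. Over 1 kb from every annotated gene lay 202 summits (24.3%, 21.5 to 27.4), against 8177 elsewhere (18.1%, 17.8 to 18.5), a difference of 6.21 percentage points (3.39 to 9.27). Genes other than protein-coding ones held 108 summits (13.0%, 10.8 to 15.5), against 8.61% (8.35 to 8.87) elsewhere, a difference of 4.41 points (2.27 to 6.88). Of these 108 summits, 81 were in lncRNA genes, 25 in pseudogenes and 2 in genes typed as misc_RNA. Elsewhere lncRNA genes held 2674 of the 3883 summits of this kind. Deeper parts of protein-coding genes held 82 summits (9.88%, 7.93 to 12.1), against 14.7% (14.4 to 15.03) elsewhere. The remaining 59 lay outside genes at a distance of up to 1 kb (7.11%, 5.45 to 9.07), against 9.43% (9.16 to 9.70) elsewhere. Windows of 41 to 60 summits, the next in count, had similar shares to the peak-poor ones, with 43.4% of summits at gene ends (41.99 to 44.8) and 24.1% over 1 kb from genes (22.9 to 25.3). In genes other than protein-coding ones they had 11.7% (10.8 to 12.6), an interval that overlaps that of the peak-poor windows.

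Set against the space available, summit densities were lower in the peak-poor windows, both at gene ends and away from genes. Gene ends made up 4.32% of the sequence there, against 10.9% elsewhere, and space over 1 kb from genes made up 74.8%, against 58.4%. Gene ends carried 292 summits per Mb (264 to 323) in peak-poor windows, against 432 (426 to 438) in the others, a ratio of 0.676 (0.611 to 0.749). Space away from genes carried 9.003 per Mb (7.80 to 10.3), against 29.8 (29.2 to 30.5), a ratio of 0.302 (0.263 to 0.347). Low densities follow from the choice of windows. Most of the sequence there lies away from genes, so the ratios are tied to that choice too and are given as a description. Of the 5 kinds of location the ratio was nearest to 1 at gene ends.

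The ratio of both densities, gene ends over space away from genes, was 32.5 in peak-poor windows (27.4 to 38.5) and 14.5 in the others (14.1 to 14.9). It was 132 in the windows of 20 or fewer summits (72.8 to 238), 25.6 in those of 21 to 40 (21.4 to 30.6) and 17.2 in those of 41 to 60 (15.99 to 18.4). The 7 windows of 20 or fewer summits, with 78 peaks, therefore raise the pooled value. These values run along the count that chose the windows and are a description only. Unknown bases and repeats count here as space away from genes, and how reads matching several places were treated is not stated in the sources used here. Their part in these ratios was not tested.

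**Figure D2:**
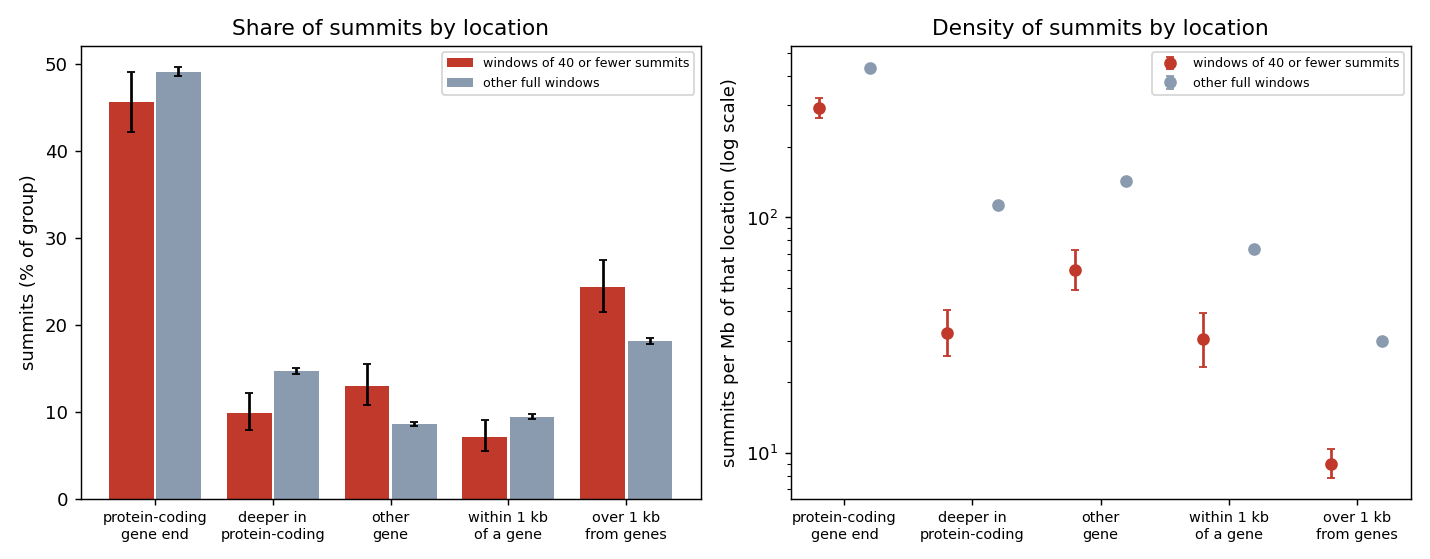
Left, the share of summits in each kind of location, in percent, and right, the number of summits per Mb of that location on a log scale. Red stands for the 830 peaks of windows with 40 or fewer summits, grey for the 45114 peaks of the other full windows, and bars are 95% exact binomial (left) or Poisson (right) intervals. The shares lie close together, while the densities differ more away from genes (9.003 against 29.8 per Mb) than at gene ends (292 against 432 per Mb).

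Around gene ends, summits were most frequent just inside the gene. In genes of 3 kb or more, 67 summits lay 200 to 300 bp inside one of 768 ends in the peak-poor windows, or 8.72 per 100 ends (6.76 to 11.1), against 10.6 (10.2 to 11.03) elsewhere. The next 100 bp held 7.03 (5.28 to 9.17), against 9.29 (8.93 to 9.66). In both groups the stretch from 200 to 300 bp inside was the fullest, although in the peak-poor windows its interval overlaps that of the next 100 bp. Outside the gene, from 600 to 1500 bp, the values per 100 bp were 0.260 to 0.781 per 100 ends, each from 2 to 6 summits, against 1.71 to 1.98 elsewhere. From 500 to 600 bp outside the value was 2.08 (1.19 to 3.38), against 1.80 (1.64 to 1.97), and these intervals overlap. The gene table lacks strand, which leaves starts and ends of genes mixed.

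**Figure D3:**
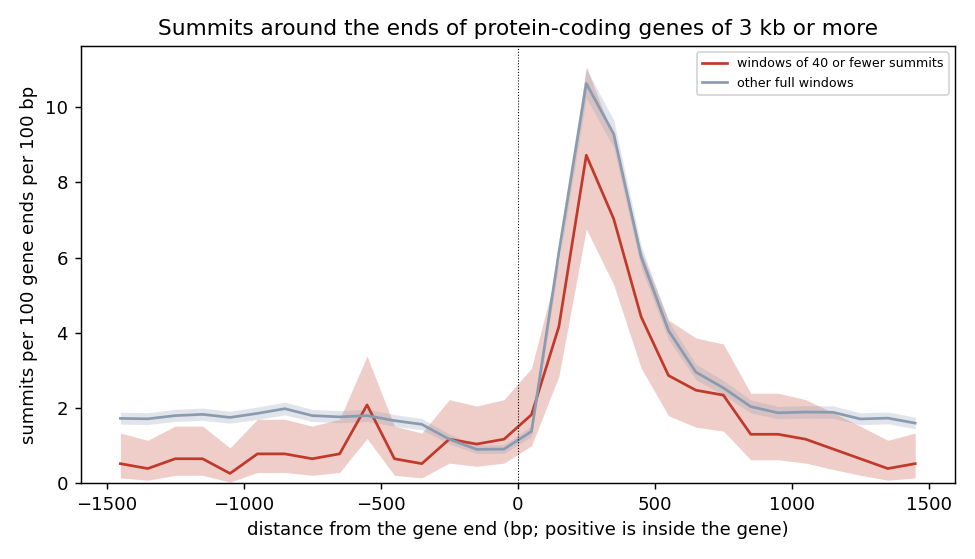
Summits per 100 gene ends in steps of 100 bp around the ends of protein-coding genes of 3 kb or more, with positive distances inside the gene. Red is for genes in windows of 40 or fewer summits (768 ends) and grey for genes in the other windows (27080 ends), and shading is the 95% Poisson interval. Both curves are highest 200 to 300 bp inside the gene, at 8.72 and 10.6, and the red curve is the lower one 1000 bp or more outside it.

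The median fold was 5.33 in peak-poor windows and 4.67 in the others, with quartiles of 3.72 and 8.12, against 3.44 and 7.93. Windows of 41 to 60 summits lay between, with a median of 5.05. A fold of 5 or more was reached by 53.7% of the peaks of peak-poor windows (50.3 to 57.2), against 50.4% (48.97 to 51.8) in windows of 41 to 60 summits and 46.4% (45.97 to 46.9) in all other windows. The median number of fragments over the summit was 25, against 22 elsewhere, on the same median background of 3.59 fragments. The share of peaks on the lowest background, 3.07 fragments, was 29.3% (26.2 to 32.5), against 20.6% (20.3 to 21.02), and it was 31.1% (29.8 to 32.4) in windows of 41 to 60 summits. Its part in the fold was not tested. Over single windows the median fold ran from 4.18 to 14.1, with a middle value of 5.28, against 3.81 to 6.43 elsewhere, with a middle value of 4.73. The 14.1 belongs to a window of 2 peaks, and the ranges overlap.

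The higher median went with fewer weak peaks and not with more of the strongest. When all chromosome peaks were divided at the quartiles of fold into 4 classes of like size, the lowest class held 18.3% of the peaks of peak-poor windows, the next ones 23.4% and 32.2%, and the highest 26.1%. A fold of 10 or more was reached by 120 peaks (14.5%, 12.1 to 17.0), against 16.2% (15.8 to 16.5) elsewhere and 16.1% of all chromosome peaks. A fold of 20 or more was reached by 5 (0.602%, 0.196 to 1.40), against 0.991% (0.901 to 1.09) elsewhere. When peaks under 10 on the −log10 q-value scale were left out, the order of the medians turned, at 7.87 in peak-poor windows and 8.37 in the others.

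Width differed little. The median peak spanned 461 bp in peak-poor windows and 446 bp in the others. Wide peaks of 1500 bp or more were 19 of 830 (2.29%, 1.38 to 3.55), against 4.26% (4.07 to 4.45) elsewhere and 4.23% of all chromosome peaks. In windows of 41 to 60 summits they were 2.502% (2.08 to 2.98).

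By location, peaks were highest and widest at gene ends in both groups. There the median fold was 6.39 in peak-poor windows and 5.92 in the others, and the median width was 633 and 628 bp. Peaks in other genes followed, at a fold of 5.37 against 5.20 and a width of 558 against 487 bp. Peaks over 1 kb from genes had a median fold of 5.13, against 4.43 elsewhere, and were 341 bp wide, against 333 bp. The lowest were those deeper in protein-coding genes, at a fold of 3.70 against 3.69. In windows of 41 to 60 summits the median fold was 6.26 at gene ends and 4.67 over 1 kb from genes. There it was 5.59 in other genes, above the value in peak-poor windows, and 3.69 deeper in protein-coding genes.

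**Figure D4:**
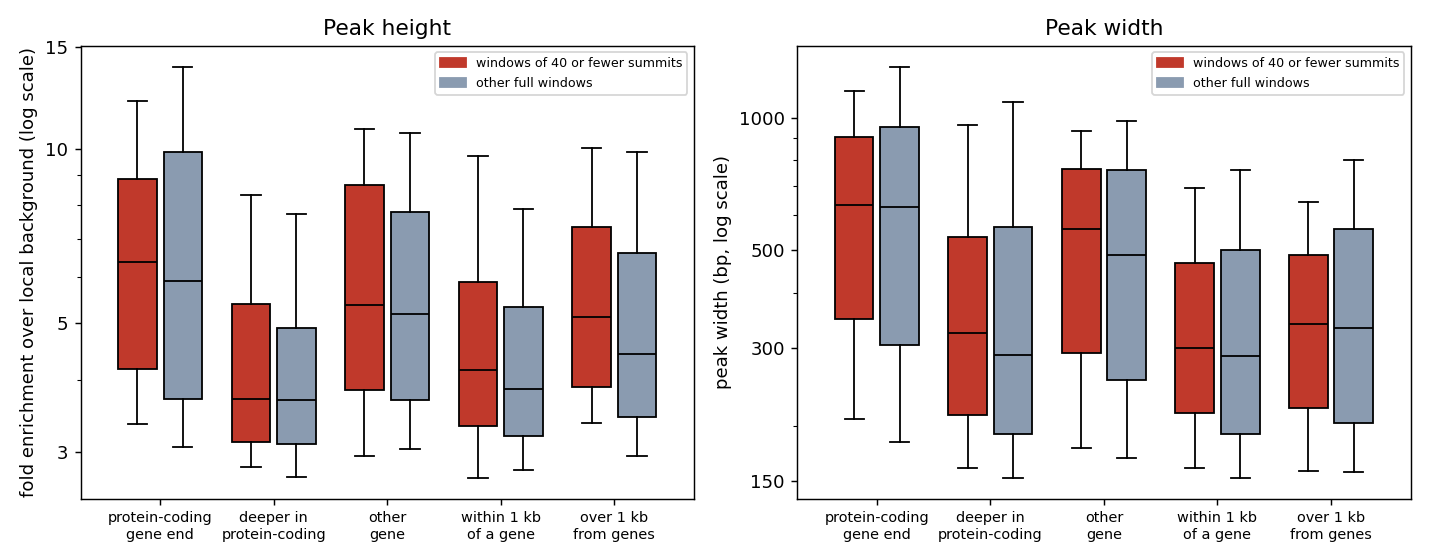
Fold enrichment (left) and width in bp (right) of peaks by location, both on log axes. Boxes span the quartiles with the median as a line, whiskers reach from the 10th to the 90th percentile, and red stands for windows of 40 or fewer summits and grey for the other full windows. The order of locations is alike in both groups, with medians of 6.39 and 5.92 at gene ends and 3.70 and 3.69 deeper in protein-coding genes.

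The link between height and gene ends was present but shallower at the top. From the lowest to the highest of the 4 fold classes, gene ends held 32.9% (25.5 to 40.97), 38.1% (31.3 to 45.4), 47.2% (41.1 to 53.4) and 59.4% (52.6 to 66.0) of the summits of peak-poor windows. In the other windows the same classes had 37.1, 39.3, 49.9 and 70.4% (69.5 to 71.2). In the highest class, 17.5% of the summits of peak-poor windows were over 1 kb from genes (12.7 to 23.2), against 12.3% (11.7 to 12.9) elsewhere.

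The 202 summits away from genes reached far into empty sequence. Their median distance to the nearest gene was 6136 bp, against 3434 bp elsewhere. More than 20 kb from any gene lay 34 of them (16.8%, 11.9 to 22.7), against 287 of 8177 (3.51%, 3.12 to 3.93). Those 34 peaks had a median fold of 5.28 and a median width of 326 bp. The 81 peaks at 5 to 20 kb had 4.92 and 308 bp, and the 87 peaks at 1 to 5 kb had 5.41 and 421 bp. Genes are sparser there, so longer distances also follow from the gene number.

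The 10 highest peaks of the peak-poor windows had folds of 17.1 to 26.6. The highest lay on chromosome 6 from 18778930 to 18779666, with a fold of 26.6 (22.7 to 30.9) and 165 fragments over its summit, 213 bp inside the lncRNA gene LOC121049805. In the same window, a peak from 18529045 to 18529756 reached 25.2-fold (20.7 to 30.3), with its summit 62 bp outside the protein-coding gene LOC112170978. On chromosome 3 a peak from 41900731 to 41901417 reached 24.5 (20.6 to 29.1) at 23002 bp from the nearest gene. The intervals of these peaks overlap, and at this depth they could not be ranked. The interval of the highest does not overlap that of the tenth, a peak on chromosome 2 from 46902479 to 46903185 with a fold of 17.1 (13.8 to 20.98). These intervals hold the local background fixed and do not allow for the peaks having been picked as the highest. Of the 10 peaks, 4 were at protein-coding gene ends, 2 in lncRNA genes, 1 just outside a gene and 3 over 1 kb from genes. The highest fold of the other windows was 42.3.

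Protein-coding genes under the strongest peaks of these regions were of moderate to large length. The files give identifiers and no product names, so no role can be stated for any of them. The 10 with the highest fold of a peak at an end had folds of 16.0 to 25.2 and lengths of 3170 to 13642 bp. After LOC112170978 came LOC112190630 on chromosome 2 from 46052778 to 46058439, whose peak had a fold of 23.1 (18.7 to 28.3) and its summit 430 bp inside. LOC112202899 on chromosome 5 from 47806917 to 47814929 carried a peak of 19.2-fold (15.2 to 23.9), with the summit 259 bp inside. LOC112200164 on chromosome 4 from 27092982 to 27096531 had 18.1 (14.4 to 22.4). The other 6 were LOC112188667 and LOC112187290 on chromosome 2, LOC112175439 on chromosome 1, LOC112179561 on chromosome 7, LOC112169480 on chromosome 6 and LOC112192508 on chromosome 3. In 9 of the 10 genes the summit lay 146 to 615 bp inside the gene.

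Of the lncRNA genes, 5 were singled out by the same measure, and LOC121049805 was the highest. LOC112193499 on chromosome 3 followed with a fold of 16.6 (12.97 to 20.95), although its peak lay wholly outside the gene and its summit 753 bp from the end. LOC112188569 on chromosome 2 had 14.8 (11.6 to 18.6), LOC112173272 on chromosome 6 had 13.3 (10.01 to 17.3) and LOC121051617 on chromosome 2 had 13.0 (9.80 to 17.0). In these 3 genes the summit lay 177, 161 and 129 bp inside.

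The widest peaks covered protein-coding genes. A peak of 4237 bp and fold 8.37, on chromosome 2 from 45710033 to 45714269, lay wholly inside LOC112190789, which is 4340 bp long. One of 3661 bp and fold 10.1, on chromosome 1 from 3298999 to 3302659, lay wholly inside the 3862 bp of LOC112191848. The other 3 were 2034 to 2063 bp wide and lay on LOC112201847 (chromosome 5), LOC112178772 (chromosome 7) and LOC112191644 (chromosome 3), genes of 3338 to 7211 bp. The first and second widest thus spanned nearly the whole gene, the others part of it.

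The 3 windows with the fewest peaks held 8 peaks in all. On chromosome 3 from 42000001 to 43000000 there were 2. One, from 42960929 to 42961381, was 4170 bp away from any gene, at a fold of 6.23 (4.44 to 8.53). The other, from 42995417 to 42996260, was among the 10 highest, with a fold of 21.99 (18.2 to 26.4), and lay in the lncRNA gene LOC121052021.

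On chromosome 5 from 49000001 to 50000000 there were also 2 peaks, both small and far from genes. Their folds were 4.92 (3.06 to 7.54) and 3.44 (1.95 to 5.71), with 19 and 13 fragments over the summit. They lay 157242 and 164896 bp from the nearest gene, a pseudogene model.

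On chromosome 7 from 40000001 to 41000000 there were 4 peaks. Of these, 2 lay in the protein-coding gene LOC112180271, with folds of 2.83 (1.57 to 4.78) and 9.73 (7.05 to 13.1). Another, of fold 6.24 (4.46 to 8.51), lay 9024 bp outside that gene. The last, of fold 5.37 (3.88 to 7.27), lay in the pseudogene LOC112177921, whose model spans 128416 bp. LOC112180271 was the only one of the 8 protein-coding genes of the 3 windows with a peak at an end.

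Among protein-coding genes of the peak-poor windows, a peak at an end was found in 343 of 773 (44.4%, 40.8 to 48.0). A peak counted when it overlapped by 1 bp or more a window at an end that reached 500 bp out of the gene and 1000 bp into it. The share was 62.5% (61.9 to 63.0) in the other windows, and 62.1% over all chromosomes. Since the windows were chosen for few peaks, nothing is read from the lower total. In windows of 41 to 60 summits it was 48.1% (46.6 to 49.7), an interval that overlaps that of the peak-poor windows. Windows were also set side by side at like numbers of genes. With 21 to 30 protein-coding genes, the share was 48.7% in 9 peak-poor windows (42.1 to 55.4), against 57.0% in 10 others (50.98 to 62.9), and the intervals overlap. With 31 to 41 genes it was 40.4% in 12 peak-poor windows (35.9 to 45.1), against 53.5% in 54 others (51.3 to 55.7). A lower share follows from the rule, so neither value is evidence of a difference.

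The share is also given by gene length, as a description, since it is tied to the rule in every length class. Genes were divided at the quartiles of length over all protein-coding genes. Lengths still differed within classes. The median was 905 bp in the shortest class, against 1020 bp elsewhere, and 6949 bp in the longest, against 6364.5 bp. For genes up to 1590 bp such a peak was present in 12.0% (7.98 to 17.1), 26 of 217, against 36.1% (35.0 to 37.2) elsewhere. For genes of 1591 to 2767 bp it was 36.7% (28.9 to 45.1), against 61.8%, and for those of 2768 to 4484 bp it was 51.3% (43.2 to 59.4), against 74.7%. For the longest, from 4485 bp, it was 72.3% (66.4 to 77.8), 183 of 253, against 77.3% (76.4 to 78.3), and these intervals overlap.

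**Figure D5:**
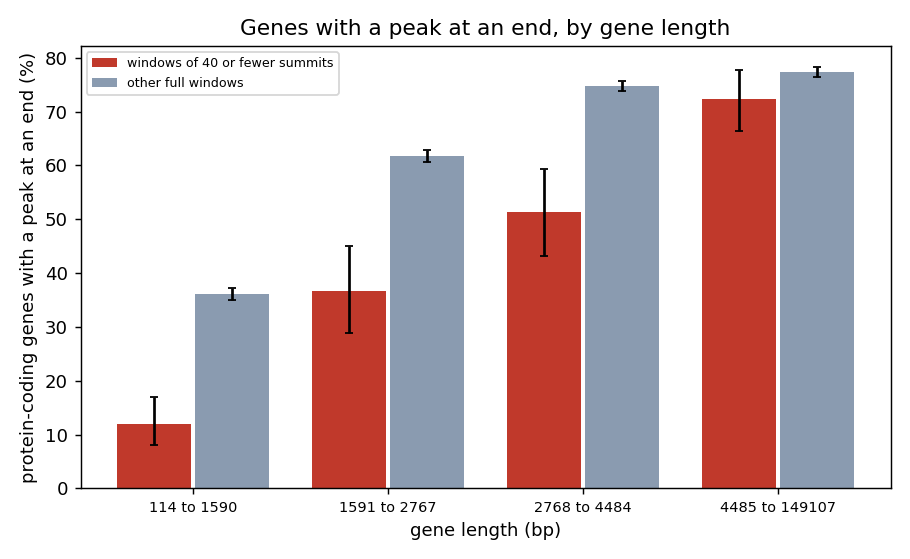
Protein-coding genes that had a peak at an end, in percent, by gene length in bp, in windows of 40 or fewer summits (red) and in the other full windows (grey), with 95% exact binomial intervals. The bars are 12.0 and 36.1% for the shortest genes and 72.3 and 77.3% for the longest.

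Marking of both ends was the rarer state. Windows chosen for few summits leave fewer genes with a peak at both ends and more with none. All shares given here, that of a peak at a single end included, are therefore tied to the rule and are a description only. Of 384 genes of 3 kb or more, 53 had a peak at both ends (13.8%, 10.5 to 17.7), against 26.3% (25.6 to 27.1) elsewhere. A peak at a single end was as frequent as elsewhere within the intervals, in 200 genes (52.1%, 47.0 to 57.2), against 50.1% (49.2 to 50.9). Neither end had one in 131 (34.1%, 29.4 to 39.1), against 23.6% (22.9 to 24.4).

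At 10 kb or more, 37 of 64 genes in the peak-poor windows had a peak at an end (57.8%, 44.8 to 70.1), against 66.7% (64.2 to 69.2) elsewhere. At 20 kb or more it was 9 of 25 (36%, 17.97 to 57.5), against 195 of 322 (60.6%, 54.99 to 65.9). These intervals overlap at either length. The 3 longest protein-coding models of all chromosomes lay in the peak-poor windows, in those with 2 and 4 summits, and held no summit. They are LOC112194600 on chromosome 3 (149107 bp), and LOC112177922 (128197 bp) and LOC112175918 (102879 bp) on chromosome 7. The next 3 models, of 100291 to 101101 bp in other windows, held 6, 7 and 8 summits. Of models of 50 kb or more, 0 of 5 in the peak-poor windows had a peak at an end (0 to 52.2%), against 32 of 45 elsewhere (71.1%, 55.7 to 83.6). Genes of 10 kb or more were looked at after their values were seen, and the longest are few. Windows chosen for few summits also leave few for the genes in them, so these counts are a description only.

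Shares for other kinds of gene are descriptions too, since the rule lowers them. Of 240 lncRNA genes, 72 had a peak at an end (30%, 24.3 to 36.2), against 42.03% (40.8 to 43.3) elsewhere and 41.6% over all chromosomes. Windows of 41 to 60 summits had 32.4% (29.7 to 35.1), which overlaps the peak-poor value. More than 5 kb from protein-coding genes it was 43 of 143 (30.1%, 22.7 to 38.3), against 36.3% (34.5 to 38.2), and these intervals overlap. Nearer ones had it in 29 of 97 cases (29.9%, 21.02 to 40.04), against 46.7% (45.0 to 48.4). Of 95 pseudogenes it was 18 (18.9%, 11.6 to 28.3), against 33.7% (31.8 to 35.6) elsewhere and 33.2% over all chromosomes. Of 5 genes for tRNA, the amino acid carriers of translation, it was 2, and the share was 47.4% over all chromosomes.

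Within the windows, peaks were sparse, and some had a near neighbour. Whether near neighbours were more frequent than peaks placed without grouping would give was not tested. The median distance from a summit to its nearest neighbour was 5237 bp, against 1621 bp elsewhere. A neighbour lay within 2 kb for 274 of 830 peaks (33.0%, 29.8 to 36.3), against 56.0% (55.6 to 56.5). No neighbour lay within 50 kb for 39 peaks (4.70%, 3.36 to 6.37), against 137 of 45114 (0.304%, 0.255 to 0.359).

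The peak-poor windows held long stretches with no summit. The longest one inside each peak-poor window ran from 100.3 to 961 kb, with a median of 196 kb, against a median of 91.9 kb and a highest value of 307 kb elsewhere. Along whole chromosomes, 5 stretches of 500 kb or more had no summit, and all 5 lay mostly in the peak-poor windows. The longest, of 1567 kb, ran on chromosome 7 from 40156096 to 41723340 and touched 3 protein-coding genes. One of 987 kb followed on chromosome 3 from 41973592 to 42961045, and one of 858 kb on chromosome 5 from 49176968 to 50035090. Unknown bases were not counted, so how much of these stretches could hold a read was not tested.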

How the data were processed

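H3K9ac ChIP-seq of rose petals was analysed through 1 peak list on RchiOBHm, from 1 library with no replicates or pooling, per the labels. The list on RcHzRDP12 was not used, since its sequences cannot be placed in these windows. Per the submitters' processing notes, the tools included Bowtie2, MACS2, SICER, FastQC and Trim Galore. Their versions and settings are not stated in the sources used here. The authors deposited a fold enrichment per peak, a linear ratio of the summit to the local background, with a small constant added to both. The significance of each peak against background was deposited as −log10 p and −log10 q, the smallest −log10 q being 1.31. The deposited score equalled −log10 q times 10, cut to a whole number, for 99.996% of chromosome peaks. These are the authors' values and were used only to describe and filter peaks within the list.

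From these, fragments over the summit were recovered for 46389 of 46391 chromosome peaks, within 0.002 in the −log10 p-value, and for all 830 peaks described. No read totals are given, so library depth is unknown. Recovery, window counts and location classes were tested on simulated data. The simulated backgrounds did not reach the highest of the list, 75.4 fragments in peak-poor windows and 78.4 in the others. Nor did the simulated folds go down to the lowest, 2.12 and 1.54. Positions count from 1. Overlapping locations were resolved in the order protein-coding gene end, deeper in such a gene, other gene, outside within 1 kb, farther. Binomial and Poisson intervals are exact, those of differences of shares are Newcombe's, and those of density ratios are normal intervals of the log ratio. Intervals of fold are Poisson limits of the fragments over the summit, with the local background held fixed. Scripts ran in Python 3.11.15 with scipy 1.17.1, pandas 2.3.3, numpy 2.4.6 and matplotlib 3.10.9.

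The peaks, windows and measures were chosen with earlier results of these data known. Named were the 10 peaks of highest fold, the 10 protein-coding and 5 lncRNA genes with the highest fold at an end, the 5 widest peaks, the peaks of the 3 poorest windows and the longest runs of windows. The planned split of gene starts and ends and the motif counts in promoters were not run, because strand and sequence were not used here. Alternatives varied the q-value, fold, window limit, window start, end zone and overlap.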

Additional observations from a re-analysis of the deposited data

How the results depend on the processing

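Of 39 recomputed values, 16 stayed within the interval of the value reported (within 1.5 times for the number of peaks) and 23 moved. Starting the windows 500 kb further on (912 peaks) moved none of the 7 results, and neither did an overlap of 200 bp for the genes with a peak. Asking for a −log10 q-value of at least 10 left 444 peaks, with 53.2% at gene ends, a density ratio of gene ends over space away from genes of 39.3, medians of 692 bp and fold 7.87, and a peak at an end of 32.3% of protein-coding and 20% of lncRNA genes. A fold of at least 5 left 446 peaks and gave 54.0% at gene ends, a ratio of 40.1, 679 bp, fold 7.87, 32.7% and 19.2%. Windows of 20 or fewer summits held 78 peaks, with 51.3% at gene ends, a ratio of 132, a median width of 385 bp and 56.1% of protein-coding genes. Windows of 60 or fewer held 5707 peaks and had a ratio of 19.6. An end zone of 500 bp gave 33.7% and a ratio of 42.6. In each of these settings the ratio was higher, and the share of protein-coding genes lower, than in the other windows. The share at gene ends was lower in peak-poor windows in each setting except windows of 20 or fewer, where it was 51.3% against 49.1%. The median fold was higher in peak-poor windows in the settings on windows and lower under the q-value filter (7.87 against 8.37) and the fold filter (7.87 against 8.33). The median width was lower than in the other windows under both filters, with windows of 20 or fewer and with windows of 60 or fewer. No paired analysis was possible because there is 1 library. Precision is limited by 830 peaks and by a median of 25 fragments per summit.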

Other observations

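Genes for small nucleolar RNAs (snoRNA), which guide the modification of ribosomal RNA, numbered 1.17 per Mb in the peak-poor windows and 0.881 per Mb elsewhere, while protein-coding genes numbered 25.8 and 63.3 per Mb. Many of these snoRNA models shared a length, 107 bp: 23 of 35 in the peak-poor windows (65.7%, 47.8 to 80.9), against 120 of 414 elsewhere (29.0%, 24.7 to 33.6). Over all snoRNA genes, 3 of 35 had a peak at an end in the peak-poor windows (8.57%, 1.80 to 23.1). Elsewhere it was 161 of 414 (38.9%, 34.2 to 43.8). Windows chosen for few summits leave fewer genes with a peak, so the lower share is a description only. Of the 107 bp models, 0 of 23 had a peak at an end in the peak-poor windows, and 1 of 120 did elsewhere. This length was singled out after its values were seen, and its part in the lower share of snoRNA genes with a peak was not tested.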
